A study of Mus musculus with 5 samples.

Results

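A group of 10 Sox genes with roles in neural and glial lineages was examined in chromatin of adult striatal neurons: Sox1, Sox2, Sox4, Sox8, Sox9, Sox10, Sox11, Sox12, Sox14 and Sox21. Each gene was found by its symbol in the authors' region lists, and all 10 had at least 1 region, among 19232 symbols listed in all. The lists come from nuclei of striatal neurons, called medium spiny neurons in the labels, of C57BL/6 mice aged 8 weeks. No treatment, sex, genotype or number of animals is given in the labels. The nuclei were sorted on NeuN, an antigen of neurons in general, so other striatal neurons can be among them. Chromatin immunoprecipitation with sequencing was done with 1 library each for H3K4me3 (Abcam antibody), H3K27me3 (Millipore), H3K27ac (Abcam) and RNA polymerase II (Pol II, Abcam), and 1 input library served as the control. With 1 library per antibody there is no replicate and no test, and all statements compare these libraries only.

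SOX proteins are transcription factors that bind DNA through an HMG box related to that of SRY. The SOXB1 factors Sox1 and Sox2 keep neural progenitors undifferentiated, and the SOXB2 factors Sox14 and Sox21 act mainly as repressors that oppose them. The SOXC factors Sox4, Sox11 and Sox12 act in newly formed neurons, and the SOXE factors Sox8, Sox9 and Sox10 specify glia: Sox9 acts in the switch to gliogenesis and in astrocytes, and Sox10 in oligodendrocytes and the neural crest. Of the readouts, H3K4me3 marks promoters, H3K27ac marks active promoters and enhancers, and H3K27me3 is set by Polycomb repressive complex 2 and marks repressed genes. A promoter with H3K4me3 and H3K27me3 together is called bivalent.

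All 10 genes had an H3K4me3 region, against 68.4% of 21031 protein-coding genes. In the other lists Sox1 and Sox2 had the same combination of regions, as did Sox14 and Sox21, and as did Sox4, Sox11 and Sox12, whereas the 3 SOXE genes differed from each other. H3K27me3 was listed at 6 genes (42.5% of coding genes), namely Sox1, Sox2, Sox14, Sox21, Sox9 and Sox10. H3K27ac was listed at 7 (51.5% of coding genes) and Pol II at 6 (41.7% of coding genes). Sox4, Sox11, Sox12 and Sox8 had regions of every antibody but H3K27me3, as did 34.8% of coding genes. Sox14, Sox21 and Sox10 were bivalent with neither H3K27ac nor Pol II, as were 13.4% of coding genes. Their H3K4me3 regions, and with them the bivalent state, were lost when only the upper 50% of regions by score were kept, and also with each list limited to its 7799 top-scoring regions. Sox1 and Sox2 had regions of all 4 antibodies, a combination found at 5.93% of coding genes. Sox9 had regions of every antibody but Pol II, as did 4.40%. In pairs, H3K4me3 occurred with H3K27me3 at 6 genes (24.2% of coding genes), with H3K27ac at 7 (51.4%) and with Pol II at 6 (41.6%). H3K27ac and Pol II occurred together at the same 6 genes (40.7%). Of the 6 bivalent Sox genes, 3 had H3K27ac, against 42.7% of all bivalent coding genes, and 2 had Pol II, against 26.4%. In the whole lists, the counts of genes with H3K27me3, H3K27ac or Pol II differ from those that the shares of all coding genes would give by fewer than 2 genes. With only the upper 50% of regions by score they differ more: H3K27me3 was left at 6 genes (25.0% of coding genes), H3K27ac at 6 (26.1%) and Pol II at 5 (21.2%). This was not so with each list limited to its 7799 top-scoring regions. There H3K27me3 was at 6 genes (41.0% of coding genes), H3K27ac at 6 (41.6%) and Pol II at 6 (41.7%). In libraries of bulk nuclei, a region present in a part of the nuclei and a weaker one present in all of them cannot be told apart.

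Promoter sequences from RefSeq (build GRCm38.p6, 250 bases before to 50 after the annotated start) were found for 8 of the 10 genes, all but Sox9 and Sox10. The 250 bases upstream of the start are shown for a SOXC gene with the most CpG dinucleotides (Sox12), a SOXC gene with the fewest (Sox4), a gene with all 4 antibodies (Sox1) and a bivalent gene without active marks (Sox14). Each runs 5′ to 3′ along the gene, with every CpG in capitals. They lie at chr2:152398047-152398296 on the minus strand, chr13:28953700-28953949 on the minus strand, chr8:12395269-12395518 on the plus strand and chr9:99876171-99876420 on the minus strand.
Sox12: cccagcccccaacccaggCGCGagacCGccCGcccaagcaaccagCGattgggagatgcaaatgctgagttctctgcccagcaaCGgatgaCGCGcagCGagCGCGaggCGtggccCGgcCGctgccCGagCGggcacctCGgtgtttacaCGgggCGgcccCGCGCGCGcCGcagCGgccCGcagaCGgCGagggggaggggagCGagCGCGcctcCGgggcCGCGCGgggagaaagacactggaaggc
Sox4: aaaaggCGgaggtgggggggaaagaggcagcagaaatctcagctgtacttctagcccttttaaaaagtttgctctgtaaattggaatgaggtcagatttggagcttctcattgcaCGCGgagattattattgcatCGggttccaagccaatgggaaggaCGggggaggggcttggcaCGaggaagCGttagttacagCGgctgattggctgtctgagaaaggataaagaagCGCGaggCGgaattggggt
Sox1: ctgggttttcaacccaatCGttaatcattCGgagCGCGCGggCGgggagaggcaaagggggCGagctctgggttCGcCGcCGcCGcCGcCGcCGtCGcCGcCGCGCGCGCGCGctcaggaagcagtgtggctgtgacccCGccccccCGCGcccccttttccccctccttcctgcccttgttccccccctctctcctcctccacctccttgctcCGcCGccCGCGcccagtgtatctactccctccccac
Sox14: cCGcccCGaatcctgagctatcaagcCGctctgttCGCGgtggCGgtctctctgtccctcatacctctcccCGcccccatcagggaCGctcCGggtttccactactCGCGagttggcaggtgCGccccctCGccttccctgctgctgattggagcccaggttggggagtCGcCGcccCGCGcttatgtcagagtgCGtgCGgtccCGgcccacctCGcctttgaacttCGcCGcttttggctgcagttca

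CpG-rich DNA is where H3K4me3 and Polycomb complexes are commonly found in vertebrate genomes. In the whole window of 300 bases, the Sox12 promoter held 47 CpG, Sox1 37, Sox2 27, Sox14 26, Sox21 22, Sox11 21, Sox8 21 and Sox4 12. The median of 20484 promoters of coding genes was 14, so 7 of the 8 lay above it and Sox4 lay below it. Genes with the same marks give another comparison, taking for each gene the promoter with the most CpG. The median was 25 for genes with H3K4me3, H3K27ac and Pol II but no H3K27me3, and of the 4 Sox genes of this kind only Sox12 lay above it. It was 23 for genes with all 4 antibodies, below Sox1 and Sox2, and 13 for bivalent genes without active marks, below Sox14 and Sox21. In the order of CpG counts, Sox1, Sox2, Sox14 and Sox21, which had H3K27me3, followed each other. They lay below Sox12 and above Sox11, Sox8 and Sox4, which had none. The highest and the lowest CpG counts both belonged to SOXC genes without H3K27me3. The GC content ran from 52.0% at Sox4 to 76.7% at Sox12, against a median of 57.0%. The CCAAT motif (either strand) was found in 6 of the 8 promoters, against 38.4% of all promoters. Sox4 held 4 copies, the first bases of which lay 171, 104, 47 and 8 bases upstream of the start, and the other 5 promoters held 1 each. The GC-box letters GGGCGG, also read on both strands, were in 6 of 8 promoters, all but Sox21 and Sox4, against 47.6% of all promoters. TATAAA was in none of the 8 (12.4% of all promoters). ACAAAG and ACAATG, some of the letters that SOX proteins bind, were in 1 (Sox2) and in none, against 16.7% and 10.5% of all promoters. Other forms of the SOX motif were not searched, so the counts do not show that SOX motifs are absent. These matches describe letters in the window and no bound factor. The windows are in GRCm38.p6 and the regions in mm9, so the matches were not placed within the regions.

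Sox1 and Sox2, of the SOXB1 subgroup, had both active and Polycomb-associated regions. Each region comes with the authors' score over input, whose scale is not given in the sources used here. It is used only to rank regions within 1 list, and no listed score was below 2. At Sox1, which is needed for neurons of the ventral striatum to form, the H3K4me3 region covered 23.3 kb of chromosome 8 (mm9, 12380701 to 12404000) with a score of 8.83. It was wider than 98.4% of the 13142 H3K4me3 regions and scored above 73.4% of them. The H3K27me3 region covered 48.6 kb (12378401 to 12427000, score 5.96) and scored above 85.0% of its list. The H3K27ac region of Sox1 covered 10.2 kb (12393401 to 12403600, score 5.66), and its Pol II region 10.4 kb (12393001 to 12403400, score 3.60). Both were among the widest of their lists, with 97.2% of H3K27ac regions and 97.5% of Pol II regions narrower.

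The H3K27ac region of Sox1 took up 43.8% of the H3K4me3 region and its Pol II region 44.6%, both at the downstream end. The upstream end belonged to a second transcript, the long noncoding RNA gene Sox1ot (Gm5607 in the lists), for which the same H3K4me3 and H3K27me3 regions were listed. Sox1ot had its own H3K27ac region of 5.6 kb (12382901 to 12388500, score 3.65) and its own Pol II region of 5.0 kb (12383301 to 12388300, score 2.93). A gap of 4.9 kb in H3K27ac and 4.7 kb in Pol II lay between the regions of the 2 genes. Together the paired regions covered 67.8% of the H3K4me3 region by H3K27ac and 66.1% by Pol II, and all of them lay inside the H3K27me3 region.

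At Sox2, the best known regulator of neural stem cells in the family, the H3K4me3 region covered 10.6 kb of chromosome 3 (34545301 to 34555900, score 8.25). H3K27me3 extended over 60.8 kb (34515401 to 34576200, score 6.61), reaching 29.9 kb beyond the H3K4me3 region upstream and 20.3 kb downstream. H3K27ac covered 7.1 kb (34545501 to 34552600, score 4.58) and Pol II 8.3 kb (34546201 to 34554500, score 2.58). The Pol II region was wide, with 94.9% of the list narrower, but its score exceeded only 37.8% of the list, against 80.9% for Sox1. Sox2 lies within the noncoding gene Sox2ot. The start of Sox2ot had a separate H3K27me3 region of 16.4 kb (34445901 to 34462300, score 3.43), and no H3K4me3, H3K27ac or Pol II region was listed for it.

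**Figure D1:**
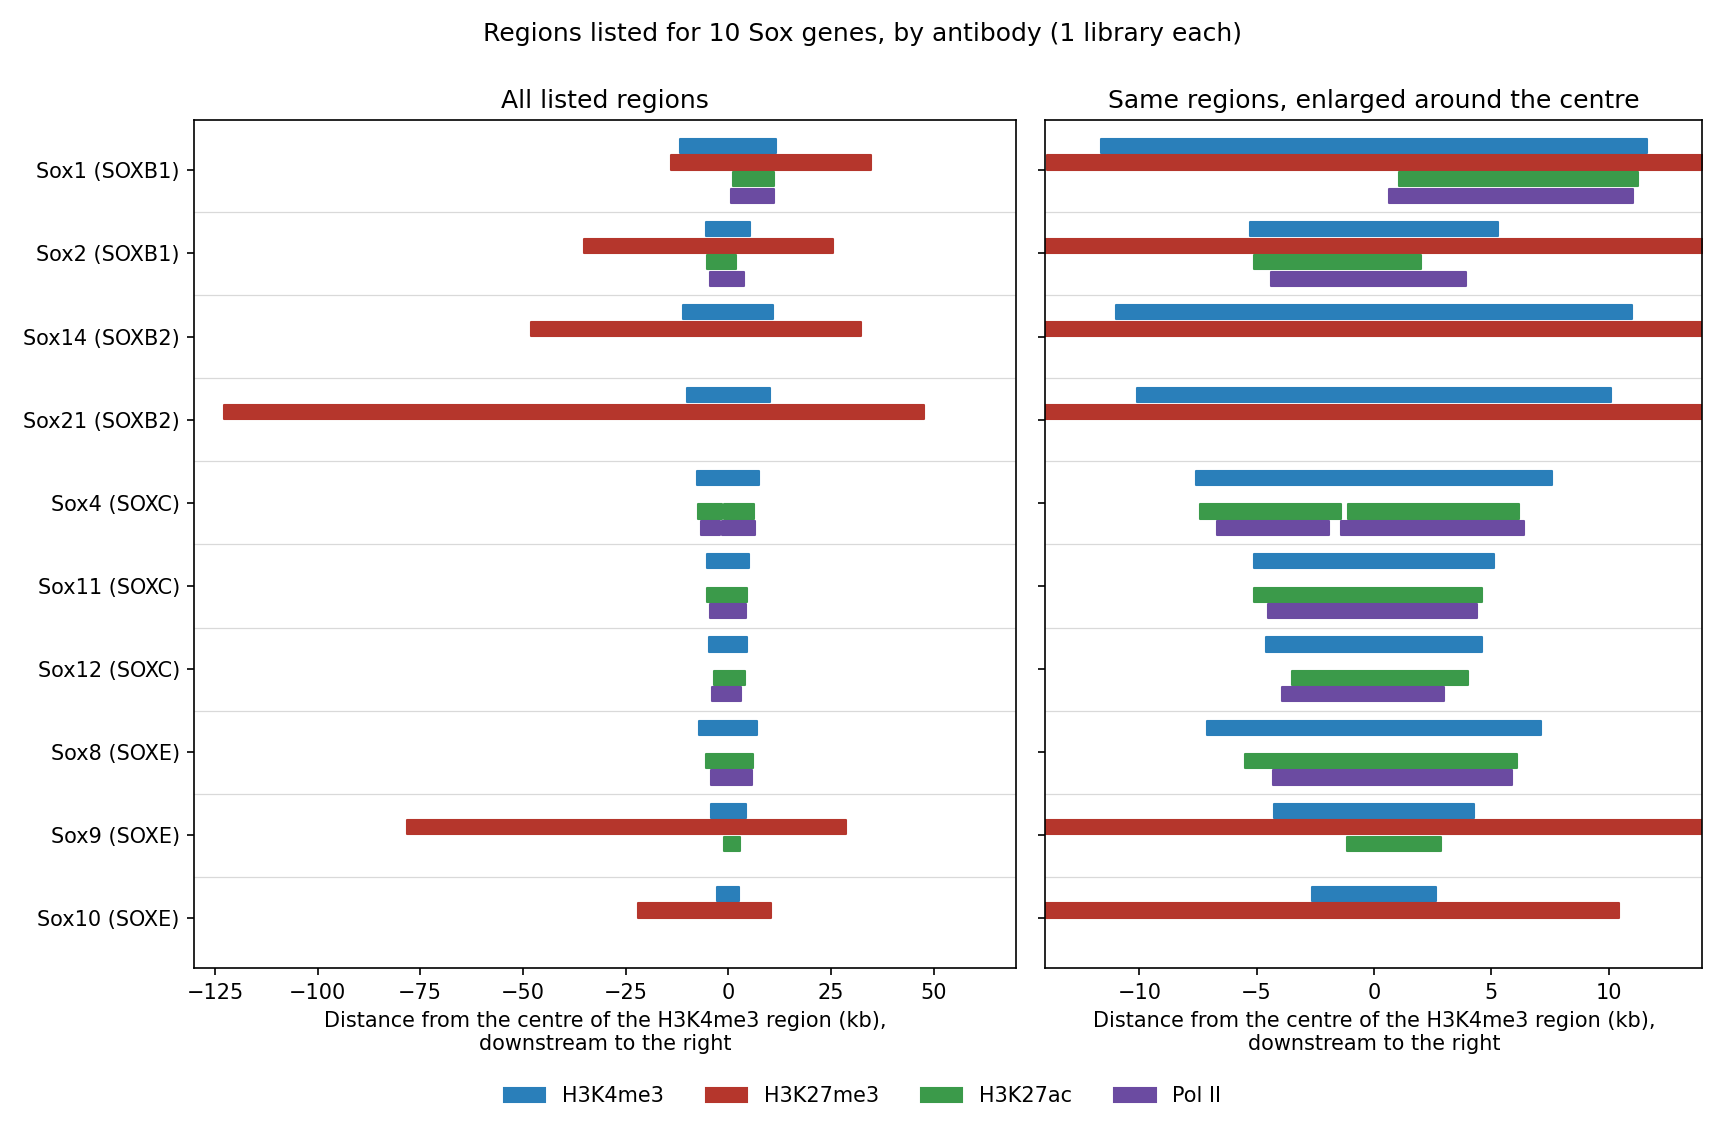
Listed regions of the 10 Sox genes drawn as bars along the direction of transcription, with the distance from the centre of each gene's H3K4me3 region in kb on the horizontal axis and 1 row per gene; colours give the antibody, and the right panel enlarges the centre. H3K27me3 bars reach beyond H3K4me3 on both sides at the 6 genes that have them, though by only 2.3 kb upstream at Sox1. H3K27ac and Pol II bars lie within the H3K4me3 bar at the 7 and 6 genes that have them.

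The map of regions shows how the marks were nested. At all 6 Sox genes with both marks, the whole H3K4me3 region lay inside the H3K27me3 region. Among all 5091 coding genes with both marks this held for 45.1%. It was not particular to these 6 genes. The same nesting was found at every other Sox gene with both marks: Sox3, Sox5, Sox6, Sox7, Sox13, Sox17, Sox18 and Sry. All 3 genes with H3K27ac and H3K27me3 (Sox1, Sox2 and Sox9) had the H3K27ac region wholly inside H3K27me3, against 13.6% of 2181 coding genes with both. Sox1 and Sox2 had the Pol II region wholly inside H3K27me3 as well, against 10.3% of 1344 coding genes. H3K27me3 with Pol II was itself listed at 2 of the 10 Sox genes and at 6.39% of coding genes, and H3K27me3 with H3K27ac at 3 and at 10.4%. Nesting within H3K4me3 was common to all genes: H3K27ac lay wholly inside it at 7 of 7 Sox genes and 96.7% of coding genes with both, and Pol II at 6 of 6 and 93.7%. Wide H3K27me3 regions can hold another region more easily, and the H3K27me3 regions of the 6 Sox genes had a median of 70550 bp, against 15900 bp for all coding genes with the mark. The lists do not show whether the active and Polycomb-associated regions were on the same chromosomes, in the same nuclei, or in different neurons of the sorted population.

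Sox14 and Sox21, the SOXB2 genes, had the highest H3K27me3 scores of the 6 genes and no active mark. Sox14 marks certain GABAergic neurons of the diencephalon and midbrain. Its H3K27me3 region covered 80.3 kb of chromosome 9 (99741401 to 99821700) with a score of 12.2, rank 69 of 8219 regions. The H3K27me3 region of Sox21, a gene of neural progenitors, covered 170.5 kb of chromosome 14 (118583401 to 118753900) with a score of 11.2, rank 166. That was the widest of the 6, rank 116 by width, and it extended 112.8 kb upstream and 37.5 kb downstream of the H3K4me3 region. It was also listed for the neighbouring coding gene Gm9376. Their H3K4me3 regions were wide and, within the whole list, low in score. At Sox14 the region covered 22.0 kb (99762701 to 99784700, score 4.41), wider than 98.0% of the list and scoring above 20.6% of it. At Sox21 it covered 20.2 kb (118620901 to 118641100, score 5.95), wider than 97.6% and scoring above 35.7%. Together with Sox1 they are the 3 members with at least 20 kb of H3K4me3, against 3.60% of coding genes with the mark. The Sox1 region was also listed for Sox1ot. Among the 2823 coding genes with H3K4me3 and H3K27me3 alone, whose median H3K4me3 region was 5.6 kb, 95.3% had a narrower H3K4me3 region than Sox14 and 94.4% a narrower one than Sox21. Within that class the H3K4me3 scores were not low: 63.4% of the genes scored below Sox14 and 86.2% below Sox21.

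Sox4, Sox11 and Sox12, the SOXC genes, had the marks of active promoters, and no H3K27me3 region was listed for any of them. Sox4 had 15.2 kb of H3K4me3 on chromosome 13 (29038801 to 29054000, score 10.7). Sox11 had 10.2 kb on chromosome 12 (28020801 to 28031000, score 11.1), and Sox12 had 9.2 kb on chromosome 2 (152218101 to 152227300, score 11.1). The 3 scores were close in rank, above 90.9%, 93.1% and 93.0% of the list. Active marks separated the genes more. Sox12, the least studied of the subgroup, had the highest H3K27ac score of the 10 Sox genes (9.01, over 7.5 kb, 152218701 to 152226200), above 95.7% of the list. Its Pol II region covered 6.9 kb (152219701 to 152226600) and scored 5.57, rank 98 of 7799.

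Sox11, a factor of immature neurons, had H3K27ac over 9.7 kb (28021301 to 28031000, score 5.01), which scored above 67.4% of its list. Its Pol II region covered 8.9 kb (28021501 to 28030400, score 3.61) and scored above 81.3%. H3K27ac covered 95.1% of the Sox11 H3K4me3 region and Pol II 87.3%, so the 3 marks were nearly coextensive. At Sox4 both active marks were listed as a pair of regions. H3K27ac covered 6.0 kb at the upstream side (29047801 to 29053800, score 5.35) and 7.3 kb at the downstream side (29040201 to 29047500, score 4.65), with a gap of 300 bp. Pol II covered 4.8 kb upstream (29048301 to 29053100, score 2.67) and 7.8 kb downstream (29040001 to 29047800, score 3.19), with a gap of 500 bp. More than 1 H3K27ac region was listed for 2.18% of coding genes with the mark, and more than 1 Pol II region for 1.73%. The gaps did not coincide, since the H3K27ac gap lay at the edge of the downstream Pol II region. How neighbouring regions were joined is not given in the sources used here.

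The 3 SOXE genes had 3 different combinations of marks. Sox8, which acts beside Sox10 in oligodendrocytes, had the highest H3K4me3 score of the 10 genes, 12.3 over 14.2 kb of chromosome 17 (25699201 to 25713400), above 97.5% of the list. H3K27ac covered 11.6 kb (25700201 to 25711800, score 8.16) and was wider than 98.3% of its list. Pol II covered 10.2 kb (25700401 to 25710600, score 4.10) and was wider than 97.4%. No H3K27me3 region was listed for Sox8. The H3K4me3 region was also listed for Lmf1, a lipase maturation factor gene. Lmf1 had in addition its own regions of 3 antibodies next to it: H3K4me3 (25713501 to 25719500, score 6.13), H3K27ac (25713801 to 25718800, score 3.20) and Pol II (25713601 to 25718400, score 2.55). The Sox8 and Lmf1 regions of H3K27ac and Pol II did not overlap.

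Sox9 had a 106.8 kb H3K27me3 region on chromosome 11 (112566601 to 112673400, score 5.91), wider than 96.7% of the list and shared with the noncoding gene BC006965. Its H3K4me3 region covered 8.5 kb (112640501 to 112649000, score 7.53) and scored above 57.1% of the list. The H3K27ac region of Sox9 covered 4.0 kb (112643601 to 112647600) and scored 2.01, above only 0.389% of the list, and no Pol II region was listed. This H3K27ac region was near the lowest score that was listed, and it was lost when only the upper 50% of the regions by score were kept. Sox10 had the weakest H3K4me3 of the 10 genes, 5.3 kb of chromosome 15 (78991401 to 78996700) with a score of 2.73, above 8.36% of the list. H3K27me3 at Sox10 covered 32.5 kb (78983601 to 79016100) and scored 8.09, above 93.5% of the list. Both regions were also listed for the noncoding gene Gm10863, and no H3K27ac or Pol II region was listed for Sox10.

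**Figure D2:**
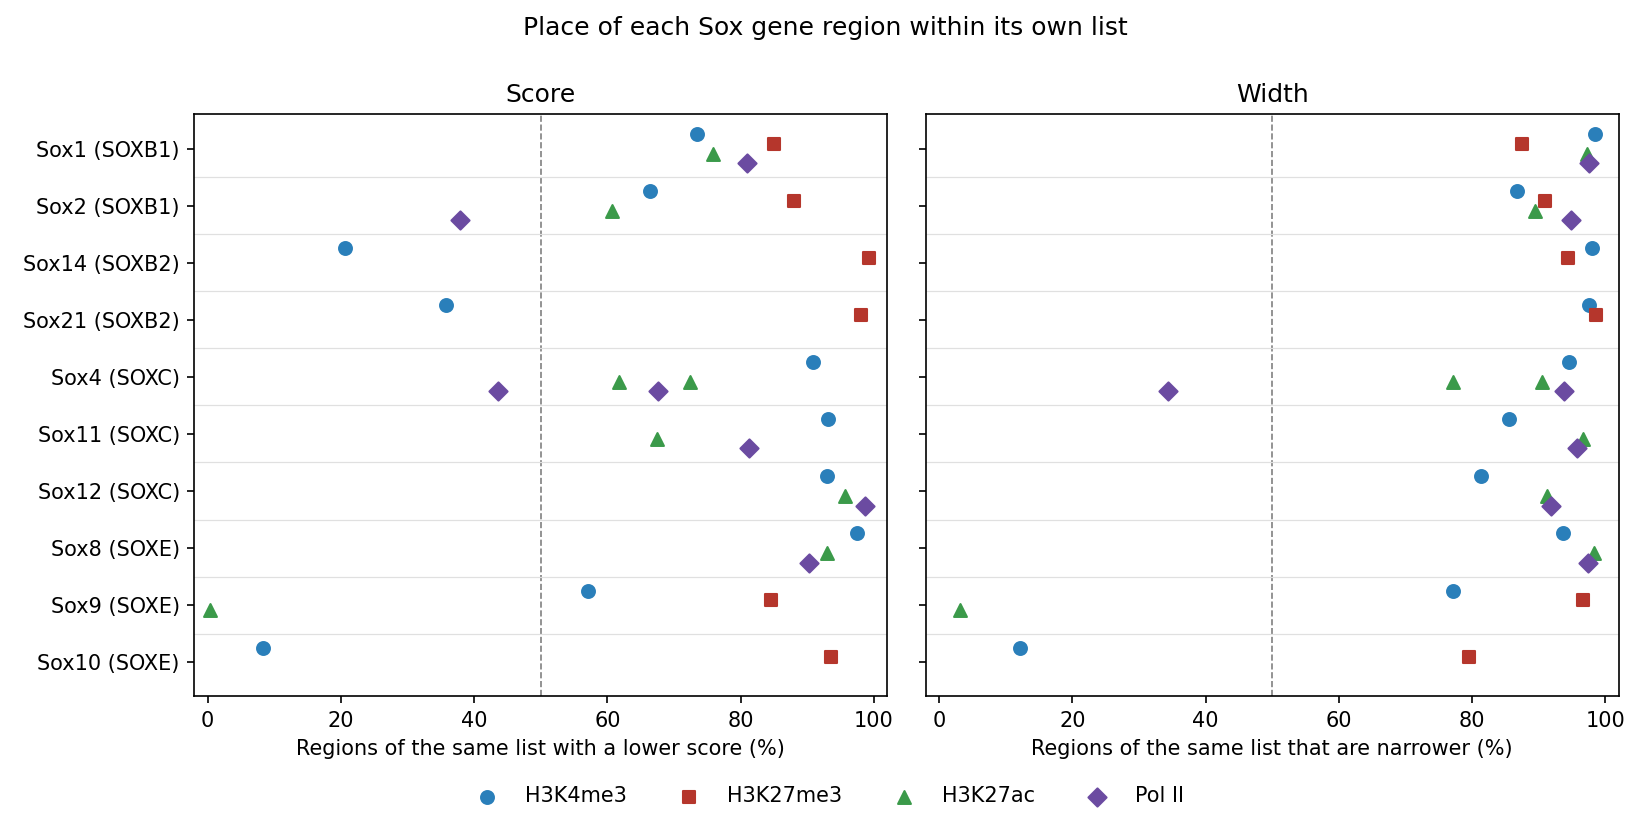
Place of each Sox gene region within its own list, as the percentage of regions of the same antibody with a lower score (left) and with a smaller width (right); each point is 1 region, and the dashed line marks the middle of the list. Sox14 and Sox21 combine high H3K27me3 scores (99.2% and 98.0%) with H3K4me3 scores in the lower part of the whole list (20.6% and 35.7%), and nearly all points for width lie above the middle, the exceptions being H3K27ac of Sox9, H3K4me3 of Sox10 and the upstream Pol II region of Sox4.

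The plot of ranks shows that width was the feature most of these regions shared. The median width of the widest region per gene was 12400 bp for H3K4me3 at the 10 Sox genes, against 6600 bp over all coding genes with the mark. For H3K27ac it was 7500 bp at 7 genes against 5300 bp, and for Pol II 8600 bp at 6 genes against 4900 bp. Such width was not particular to the Sox genes. Medium spiny neuron markers, treated below, had larger medians: H3K4me3 18400 bp, H3K27ac 14100 bp, Pol II 14550 bp. Neural progenitor genes exceeded the Sox genes in H3K27ac only (9400 bp at 4 genes). Their H3K4me3 (9200 bp) and Pol II (5550 bp) were narrower. No other gene list treated below had a median above that of the Sox genes for these antibodies. Within the class of 1248 coding genes with all 4 antibodies, Sox1 had wider H3K4me3 than 99.0%, wider H3K27ac than 98.6% and wider Pol II than 98.6%. Its H3K4me3 region was also listed for Sox1ot, so that width is not of Sox1 alone. Sox2 was wider than 83.9%, 92.5% and 97.3% of that class. Among the 7317 coding genes with H3K4me3, H3K27ac and Pol II alone, Pol II was narrower than at Sox8 in 96.7%, Sox11 in 94.5%, Sox4 in 92.1% and Sox12 in 90.0%. H3K4me3 stood out less in width there, being narrower than at Sox4 in 91.3%, Sox8 in 89.6%, Sox11 in 77.3% and Sox12 in 71.4%. Against genes with their own combination of marks, H3K27ac at Sox9 (wider than 13.8% of 926 genes) and H3K4me3 at Sox10 (wider than 33.7% of 2823) were narrow. Score order did not follow width: the widest H3K4me3 regions (Sox1, Sox14 and Sox21) scored below those of the SOXC genes and Sox8.

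The other Sox genes were mostly bivalent, a state found at 24.2% of coding genes. Regions were listed at 9 of 10 for H3K4me3 (68.4% of coding genes) and at 8 for H3K27me3 (42.5%). H3K27ac (51.5% of coding genes) and Pol II (41.7%) were listed at 1 each. Sox30, a gene of the testis, held both active marks at low scores (H3K27ac 2.06 over 3.8 kb, Pol II 2.37 over 4.8 kb) and no H3K27me3. Sox3, the remaining SOXB1 gene, differed from Sox1 and Sox2 in having no H3K27ac or Pol II, with 7.8 kb of H3K4me3 (score 7.88) wholly inside a 23.5 kb H3K27me3 region (score 7.12). The endothelial SOXF genes Sox17, Sox7 and Sox18 had H3K27me3 scores of 12.4, 10.6 and 8.90. The SOXD genes Sox5, Sox6 and Sox13 had H3K27me3 regions whose widest were 334.0 kb, 38.8 kb and 60.1 kb, and no active mark. No region was listed for Sox15.

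Genes of neural progenitors and of immature neurons were compared by lists. The 11 neural progenitor genes all had H3K4me3, against 68.4% of coding genes, and 8 had H3K27me3, against 42.5%. Active marks were listed at 4 (H3K27ac, against 51.5%) and 6 (Pol II, against 41.7%). The POU factors that pair with SOXB1 and SOXC proteins carried active marks. Pou3f3 had 24.1 kb of H3K4me3 and H3K27ac over 21.1 kb (score 10.1). Pou3f4 had H3K27ac with a score of 6.07, and Pou3f2 4.70, and only the last of the 3 had H3K27me3 (12.4 kb, score 3.45). Pou3f2 and Hes5 had all 4 antibodies, as Sox1 and Sox2 did, and as did several markers of neurons and astrocytes named below. Pax6, Notch1, Nes and Hes1 had the highest H3K27me3 scores of the list, from 12.1 to 8.70, without H3K27ac. Low-scoring Pol II regions were listed at Hes1 (2.10) and Pax6 (2.06). The 10 immature neuron genes include some that SOXC factors regulate. H3K4me3 was listed at 9 of them and H3K27me3 at 8, whereas H3K27ac was listed at Tubb3 and Dcx only and Pol II at Tubb3 only. Tubb3, which encodes a neuronal tubulin and is also in the pan-neuronal list below, had H3K27ac with a score of 6.00 and Pol II with 4.14. Neurog2, a proneural factor, had the highest H3K27me3 score of the list (12.0 over 157.2 kb), followed by Neurod1 (10.7) and Prox1 (10.3), factors of neurons outside the striatum.

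**Figure D3:**
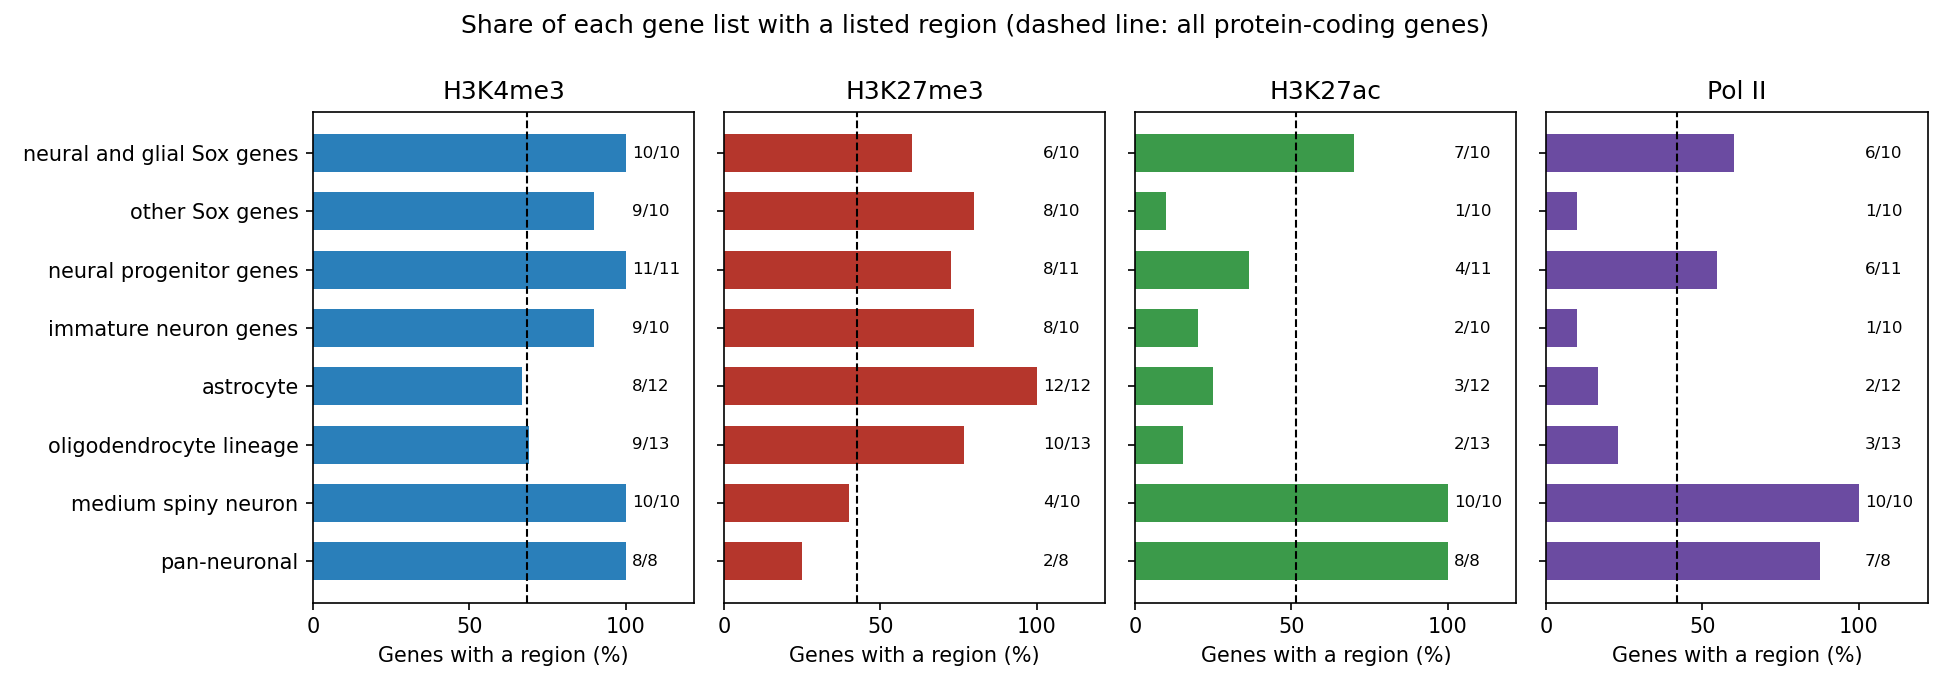
Percentage of each gene list with a listed region, 1 panel per antibody; bars start at 0, the fraction gives genes with a region over genes in the list, and the dashed line is the share of all 21031 protein-coding genes. The neural and glial Sox genes have H3K27ac at 7 of 10, the other Sox genes at 1 of 10, and medium spiny neuron markers at 10 of 10.

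Marker lists show which cell types the active marks came with. Each of the 10 medium spiny neuron markers was listed for H3K4me3 and both active marks. Of these, 4 (Adora2a, Drd2, Drd1a and Foxp2) were also listed for H3K27me3 and so had all 4 antibodies, as Sox1 and Sox2 did. Of the 8 pan-neuronal markers, all were listed for H3K4me3 and H3K27ac, 7 for Pol II and 2 for H3K27me3. Those 2 were Elavl4 and Nefl, and Nefl had all 4 antibodies. All 12 astrocyte markers had H3K27me3 and 8 had H3K4me3. H3K27ac was listed at 3 of them, with scores of 3.84 at Nfia, 3.67 at Slc1a2 and 2.17 at Aldoc. Pol II was listed at 2, with 2.42 at Nfia and 2.18 at Slc1a2, and these 2 genes had all 4 antibodies. Gfap, Aqp4, Aldh1l1, Slc1a3 and Gja1 had neither active mark. The H3K27ac score of Sox9, the SOX factor of astrocytes, was below those of Nfia, Slc1a2 and Aldoc. Among 13 oligodendrocyte lineage markers H3K4me3 was listed at 9 and H3K27me3 at 10. H3K27ac was listed at Mbp (7.01) and Cnp (3.43), and Pol II at those 2 genes (2.24 and 2.22) and at Myrf (2.32). Olig1, Olig2, Nkx2-2, Pdgfra, Mog and Mag had neither, like Sox10. Sox8 scored above all of the oligodendrocyte markers in both active lists, with 8.16 for H3K27ac and 4.10 for Pol II. The part of glial nuclei in the regions of Sox8 and Sox9 was not tested. Of 6 microglial markers 4 and of 5 endothelial markers all 5 had H3K27me3, and none of either list had H3K27ac or Pol II.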

How the data were processed

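Regions were measured by chromatin immunoprecipitation with sequencing in 5 samples, 1 per antibody and 1 input. Bowtie 0.12.7, MACS 1.4 and build mm9 are named in the submitters' processing notes, with no role or order. The deposited lists give each region's bounds (other values: positions in bp on a grid of 100 bp), a RefSeq transcript, a symbol and the authors' score over input, of unstated scale. Regions near a transcription start were deposited, with a window of 3 kb on each side per the file names. Depth is unknown, as the files hold no read counts, so no interval or floor was computed, and depth can change how many regions a list holds. The lists held 13142 (H3K4me3), 8219 (H3K27me3), 9781 (H3K27ac) and 7799 (Pol II) regions.

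The Sox genes were matched by symbol. Shares of all genes refer to 21031 coding genes that have an NM transcript in a GRCm38.p6 gene table, used for names and biotypes and matched by transcript accession (97.4% to 98.0% of lines) and otherwise by symbol. A gene with no row counted as having no listed region, although the searched transcripts are not given. The widest region of a gene gave its width and the highest score its score. Starts were counted from 1, and upstream and downstream follow the listed strand. The members and gene lists (other Sox genes, neural progenitor, immature neuron, and markers of 6 cell types) were chosen with earlier results of these data known. All 10 members, the other Sox genes, genes sharing a member's region and up to 4 top-scoring genes per list and mark were to be named, with all genes of a count of 5 or fewer; other names, such as marker genes without active marks, were chosen after their values were seen. No p-value was computed, and a few list genes are not reported here. Of the top-scoring genes that the naming rule gives for the cell type lists, only some are named. Functions were tested on simulated regions. Alternatives were a stricter score, lists of one length, matching by accession, and an overlap of 0.5. Python 3.11.15, numpy 2.4.6, pandas 2.3.3 and matplotlib 3.10.9 were used.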

Additional observations from a re-analysis of the deposited data

How the results depend on the processing

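Of 30 alternative counts over the 10 Sox genes, 27 stayed within 1.5 times the reported count, and 16 were identical. The span of 1.5 times took in a fall from 10 to 7 genes with H3K4me3. It also took in a fall from 3 to 2 with H3K27me3 and H3K27ac. When only regions in the upper 50% by score were kept, and with each list limited to its 7799 top-scoring regions, genes with H3K4me3 and H3K27me3 fell from 6 to 3, since the H3K4me3 regions of Sox14, Sox21 and Sox10 were lost. Genes with H3K27me3 and Pol II fell from 2 to 1 with the upper 50%, where Sox2 lost Pol II. All 6 H3K27me3 genes were kept under both settings. Sox9 lost H3K27ac under both. The limit of 7799 regions kept the whole Pol II list and most of the 8219 H3K27me3 regions, but removed many of the 13142 H3K4me3 regions. That setting was therefore far less strict for H3K27me3 and Pol II than for H3K4me3. Matching by accession and requiring an overlap of 0.5 of the narrower region changed no count. Depth, and with it the number of listed regions, is unknown. No paired analysis was possible because each antibody has 1 library and no test was made.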

Other observations

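Sry, the founding gene of the SOX family on the Y chromosome, had an H3K4me3 region (score 2.45) and an H3K27me3 region (score 2.50). Both had the same bounds, 4.8 kb wide (1916601 to 1921400), and both were near the lowest listed score of 2. No H3K27ac or Pol II region was listed for it. The score order of H3K27me3 over the 6 Sox genes with the mark (Sox14, Sox21, Sox10, Sox2, Sox1, Sox9) placed the 3 genes without H3K27ac and Pol II first, and their H3K4me3 scores (4.41, 5.95 and 2.73) were the lowest of the 10 genes. This is a description of 1 library per antibody.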
